A study of Mus musculus with 6 samples.

Results

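Plac8, Ly6a, Ly6c1, Ly6c2, Ly6d and Ifitm1 are 6 of the 32285 features counted in single-cell RNA libraries of mouse pancreatic tumours, and each symbol matched 1 feature in every library. They were chosen by their lower level in treated than in vehicle mice, as earlier summaries of the same libraries had shown it. That difference is therefore given here as a description with no test. The question put to the data was whether the lower levels lay in a few cells of a class or in all of them.

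Treated mice (n = 3) had received trametinib, an inhibitor of the kinase MEK, at 1 mg/kg, and hydroxychloroquine, a weak base that blocks the last step of autophagy in lysosomes, at 40 mg/kg, both by mouth. Vehicle mice (n = 3) had received corn oil and water. All mice of both groups were KPC animals with the alleles KrasLSL.G12D/+, p53LSL.R172H/+ and Pdx1-Cretg/+. In this model a Cre under the Pdx1 promoter switches on both mutant genes in pancreatic epithelium, and the stromal, vascular and immune cells are the host's own. Tumours measured 4 to 7 mm by ultrasound when mice were randomised, and were taken 24 h after treatment and dissociated, with 1 library per mouse. The labels used here give no age for the mice.

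Ly6 proteins are small, disulphide-bonded proteins that a lipid anchor ties to the cell surface. Ly6a encodes Sca-1, a marker of mouse progenitor cells that is also present on vessel endothelium and activated T cells. Ly6c1 and Ly6c2 encode closely related proteins seen together as Ly6C, known from vessel endothelium and from monocytes that have recently left the blood, and Ly6d is known from B-lineage cells and some epithelia. Plac8 encodes a small cysteine-rich protein known from monocytes, B cells and plasmacytoid dendritic cells, and in pancreatic cancer cells it has been tied to autophagy. Ifitm1 encodes an interferon-induced membrane protein of a family that hinders virus entry.

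The Ly6 genes all lie on the minus strand of chromosome 15 of mm10, with Ly6d at chr15:74762056-74763620, Ly6a at chr15:74994877-74998031, Ly6c1 at chr15:75044018-75048830 and Ly6c2 at chr15:75108158-75111970. Plac8 lies at chr5:100553725-100572245 on the minus strand and Ifitm1 at chr7:140967221-140969825 on the plus strand. Ly6c1 and Ly6c2 are close copies that were read in different cells, so their promoters are printed side by side. Each runs from 250 bases before the gene's start to 50 after it, 5′ to 3′ on the minus strand, from RefSeq on GRCm38.p6, at chr15:75048788-75049087 and chr15:75111922-75112221. Capitals mark bases that differ in the alignment or have no partner in it.
Ly6c1: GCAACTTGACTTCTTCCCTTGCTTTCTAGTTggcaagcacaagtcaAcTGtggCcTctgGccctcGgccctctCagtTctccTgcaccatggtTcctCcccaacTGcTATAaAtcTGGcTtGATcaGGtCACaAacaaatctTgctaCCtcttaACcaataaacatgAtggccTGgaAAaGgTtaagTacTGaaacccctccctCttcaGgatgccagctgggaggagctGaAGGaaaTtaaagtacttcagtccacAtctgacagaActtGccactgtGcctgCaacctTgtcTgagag
Ly6c2: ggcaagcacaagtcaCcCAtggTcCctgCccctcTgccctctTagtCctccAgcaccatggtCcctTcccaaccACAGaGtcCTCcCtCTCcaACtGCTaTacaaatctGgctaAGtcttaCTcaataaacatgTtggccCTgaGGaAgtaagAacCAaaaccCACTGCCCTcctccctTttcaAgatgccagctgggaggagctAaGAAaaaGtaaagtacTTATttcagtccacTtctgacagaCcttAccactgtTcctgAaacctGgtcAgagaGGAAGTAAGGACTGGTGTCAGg
The alignment had 334 columns, of which 208 were identical and 68 held a base without a partner. Among columns with a base in both, 78.2% were identical. The ends of the transcripts resemble each other too, since 34.9% of the 50-base words in the last 400 bases of Ly6c2 were also found in Ly6c1, and 16.2% of those of Ly6c1 in Ly6c2. The split of reads between these genes is therefore uncertain. To a smaller extent Ly6a shared such words too, 5.48% of its own with Ly6c1, and Ly6c1 4.87% with Ly6a. Plac8, Ly6d and Ifitm1 shared 0% of such words with the other genes searched.

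Treated libraries held 70523616 to 103825578 UMIs and gave 3941 to 5991 cells, and Vehicle libraries held 22996012 to 126645602 UMIs and gave 2144 to 10304 cells. Median depth was 8384 to 11182 UMIs per cell in Treated mice and 2995.5 to 4701 in Vehicle mice, so shares of cells are given after thinning each cell to 1000 UMIs, with the unthinned share beside them. Vehicle 1 stands apart: only 25.7% to 25.9% of its barcodes begin with a 7-base start found in another library, against at least 99.8% between any pair of the other libraries, and values without it are given where they differ. Pairs of libraries shared 0 to 24 whole barcodes. Cells were clustered with the 6 genes left out, and 7 classes had at least 20 cells in every mouse. Across all genes, edgeR's quasi-likelihood test called 103 genes in endothelial cells at an adjusted p under 0.05 (1.02% of those tested, and 0.878% lower in Treated mice) and 2 in T and NK cells, both lower (0.0393%), with 0 members among them. It called 0 in tumour cells, fibroblasts, macrophages and monocytes, neutrophils and B cells. In those classes 1866, 2030, 1195, 424 and 47 genes had an unadjusted p under 0.05, and DESeq2 called 435, 362, 288, 2 and 2.

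Among the 7 classes compared, Ly6c1, Ifitm1 and Ly6d each led in another class. Levels are CPM, the UMIs of a gene per 1000000 UMIs of the class in 1 mouse. Ly6c1 led in endothelial cells, at 496 ± 174 CPM in Treated mice and 586 ± 319 CPM in Vehicle mice (SD, n = 3 each), above every value of the next class in both groups. Ifitm1 led in neutrophils, at 2472 ± 1214 CPM in Treated mice and 3928 ± 3871 CPM in Vehicle mice, and macrophages and monocytes came next, without overlap. Ly6d led in B cells, at 1495 ± 632 CPM in Treated mice and 1418 ± 374 CPM in Vehicle mice, and its range there overlapped that of tumour cells.

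The order of classes differed between the groups for Plac8 and Ly6a. Plac8 in Treated mice ran in the order B cells, fibroblasts, tumour cells and neutrophils, at means of 598 ± 274, 409 ± 66.0, 383 ± 366 and 207 ± 16.5 CPM, each overlapping the next, with all other classes lower. In Vehicle mice tumour cells came first at 1405 ± 1089 CPM, then neutrophils, B cells, fibroblasts, and macrophages and monocytes at 382 ± 66.8 CPM, again with every neighbour overlapping. Macrophages and monocytes of Vehicle mice thus stood among the classes rich in Plac8, and those of Treated mice overlapped T and NK cells. Ly6a in Treated mice was highest in endothelial cells (419 ± 69.4 CPM), followed by fibroblasts, B cells, tumour cells and T and NK cells with overlapping ranges. In Vehicle mice tumour cells led at 698 ± 46.6 CPM and overlapped endothelial cells at 479 ± 194 CPM.

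Ly6c2 had its largest means in neutrophils, at 97.3 ± 140 CPM in Treated mice and 350 ± 516 CPM in Vehicle mice, and these ranges overlapped those of the next class. Plasmacytoid dendritic cells were too few for the comparison of classes, with 1, 7 and 13 cells in Treated mice, against 2, 13 and 42 in Vehicle mice, but they held the highest levels of both Plac8 and Ly6c2 in most mice. Plac8 there was 4070.2, 3930.1 and 3077 CPM in Treated mice and 6287, 3816 and 3152 CPM in Vehicle mice. Ly6c2 was 1977, 988 and 684 CPM in Treated mice and 613, 1908 and 1735 CPM in Vehicle mice. The groups overlapped for both genes. Conventional dendritic cells, with 12, 16 and 24 cells in Treated mice, against 11, 64 and 144 in Vehicle mice, held Ifitm1 at 731, 1842 and 1383 CPM in Treated mice and 1369, 4084 and 4692 CPM in Vehicle mice, more than neutrophils in some mice.

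**Figure D1:**
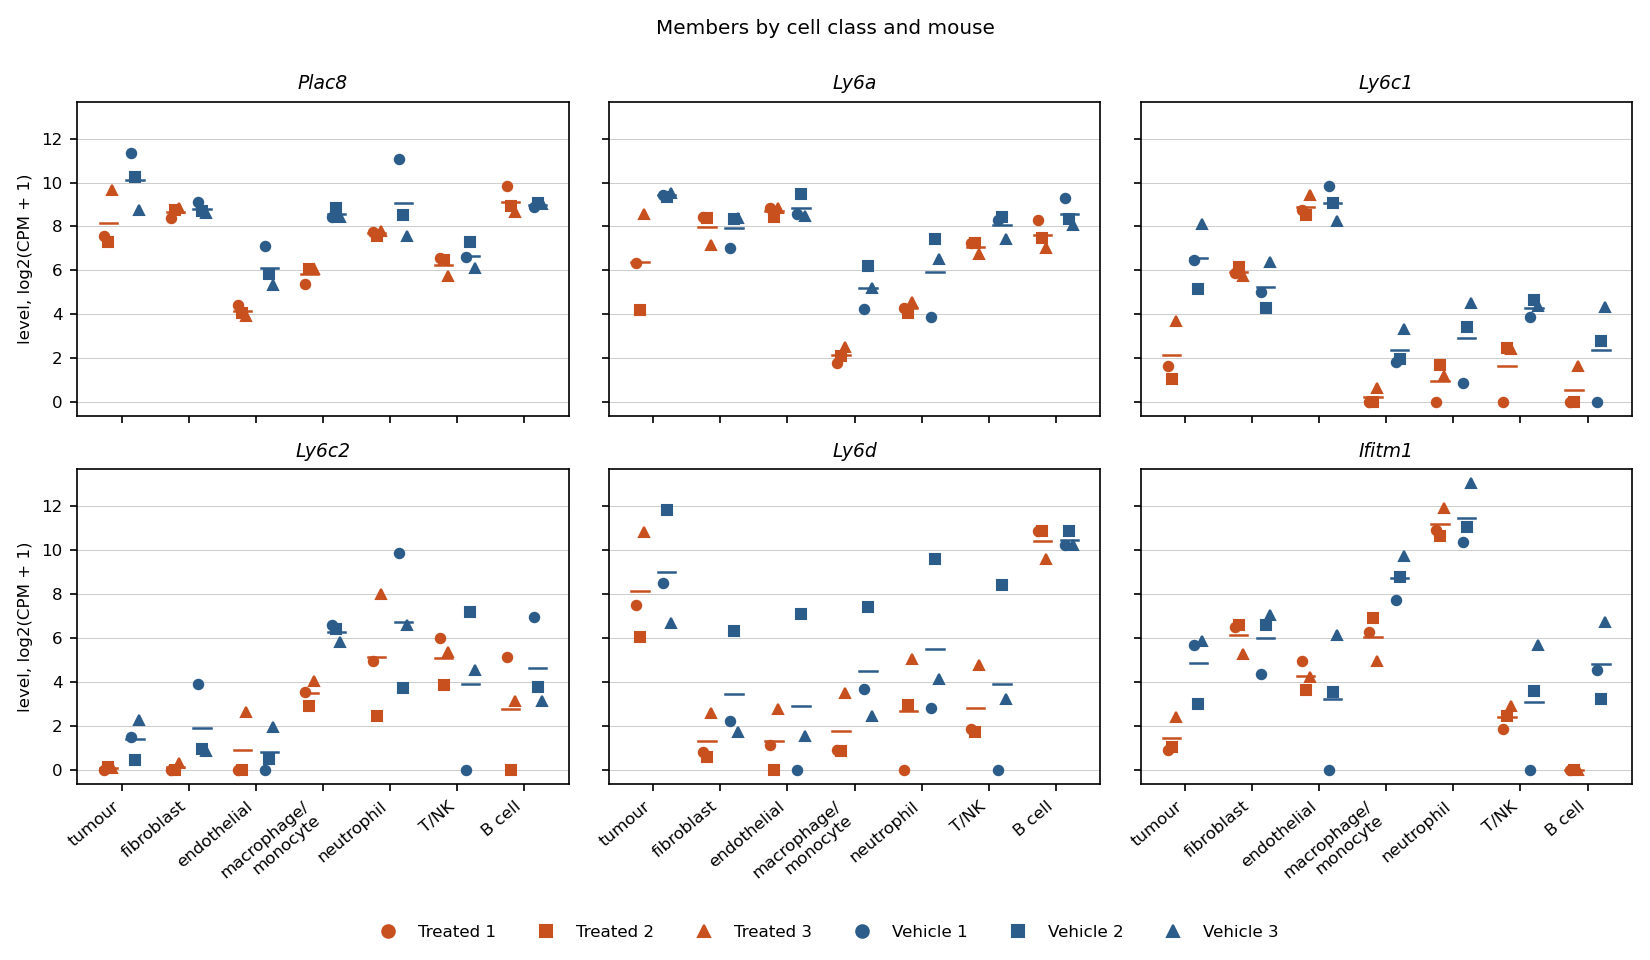
Level of each gene, as log2(CPM + 1), in 7 cell classes of each mouse, with Treated mice left of Vehicle mice and a short line at the mean of the 3 log2 values. In macrophages and monocytes the Treated points of Plac8 lie at 40.4 to 65.4 CPM and the Vehicle points at 339.5 to 459 CPM, while the groups overlap for Ly6c1 in endothelial cells and Ly6d in B cells.

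All 3 Treated values lay below all 3 Vehicle values for 5 of 6 members in macrophages and monocytes, where 11.1% of all genes tested did so. The count was 4 in tumour cells (3.46% of genes), 2 in T and NK cells (5.44%), 1 each in fibroblasts (5.95%), endothelial cells (9.74%) and B cells (5.78%), and 0 in neutrophils (3.27%). In fibroblasts it was Ly6c2, with 3 UMIs over all Treated mice, and in B cells Ifitm1, with 0. No member lay higher without overlap in any of the 7 classes. Because lower levels chose the members, nothing is read from these counts. By gene, the count was 3 of 7 classes for each of Ly6a, Ly6c1, Ly6c2 and Ifitm1, 2 for Plac8 and 0 for Ly6d.

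Plac8 in macrophages and monocytes was 40.4, 65.3 and 65.4 CPM in Treated mice 1, 2 and 3, against 339.5, 459 and 347 CPM in Vehicle mice 1, 2 and 3. Every Treated value was far below every Vehicle value, and the mean was 6.69-fold lower in Treated mice (edgeR log2 fold change -2.72, SE 0.26). After thinning, which left out 124, 265 and 49 shallow cells of Treated mice and 55, 61 and 203 of Vehicle mice, cells with a Plac8 UMI made up 3.09%, 3.76% and 4.09% of the class in Treated mice, against 14.5%, 25.1% and 21.9% in Vehicle mice. Unthinned, they made up 7.96%, 9.17% and 13.8% in Treated mice, against 39.6%, 48.5% and 31.5% in Vehicle mice. The thinned cells that had a Plac8 UMI held 1.76, 1.81 and 2.02 on average in Treated mice, against 2.02, 2.38 and 2.18 in Vehicle mice. On the log2 scale the ratio of mean shares was -2.49 and that of mean UMIs per cell with one was -0.23. At this depth a cell with a UMI holds few more than the minimum of 1, so these counts cannot tell a lower level in all cells from a loss in some of them.

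Free RNA in droplets gives UMIs to cells that do not make a transcript, and plasma cells served as a measure of it for Plac8. In the 3 mice with at least 20 plasma cells, Plac8 there was 11.6 CPM in Treated 3 and 47.9 and 8.85 CPM in Vehicle 1 and 2. A thinned plasma cell had a Plac8 UMI in 1 of 68 cells (1.47%) of Treated 3, in 0 of 39 cells of Vehicle 1, which allows up to 7.69%, and in 3 of 42 cells (7.14%) of Vehicle 2. Unthinned shares were 16.2% in Treated 3 and 39.0% and 8.51% in Vehicle 1 and 2, at median depths of 17430, 11639 and 8216 UMIs, against 12217, 4238 and 4881 UMIs in macrophages and monocytes of the same mice. The unthinned share of Treated 3 macrophages and monocytes, 13.8%, was thus no higher than that of its plasma cells, whereas their CPM was higher, 65.4 against 11.6. The thinned shares and the CPM of Vehicle 1 and 2 lay above those of their plasma cells.

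Tumour cells had the highest Plac8 mean of the 7 classes in Vehicle mice. The summed level of 8 tumour genes in macrophages and monocytes was 1.43%, 1.90% and 0.732% of its tumour-cell level in Treated mice, against 2.94%, 4.32% and 2.47% in Vehicle mice. For Plac8 the same ratio was 21.3%, 42.3% and 8.13% in Treated mice, against 13.2%, 37.9% and 81.3% in Vehicle mice. It was above that of the tumour genes in all 6 mice. The tumour genes themselves summed to 58.3, 57.0 and 91.0 CPM in this class in Treated mice and 92.3, 568 and 181 CPM in Vehicle mice, without overlap, so they moved with the groups too. Their part in the Plac8 difference was not tested.

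**Figure D2:**
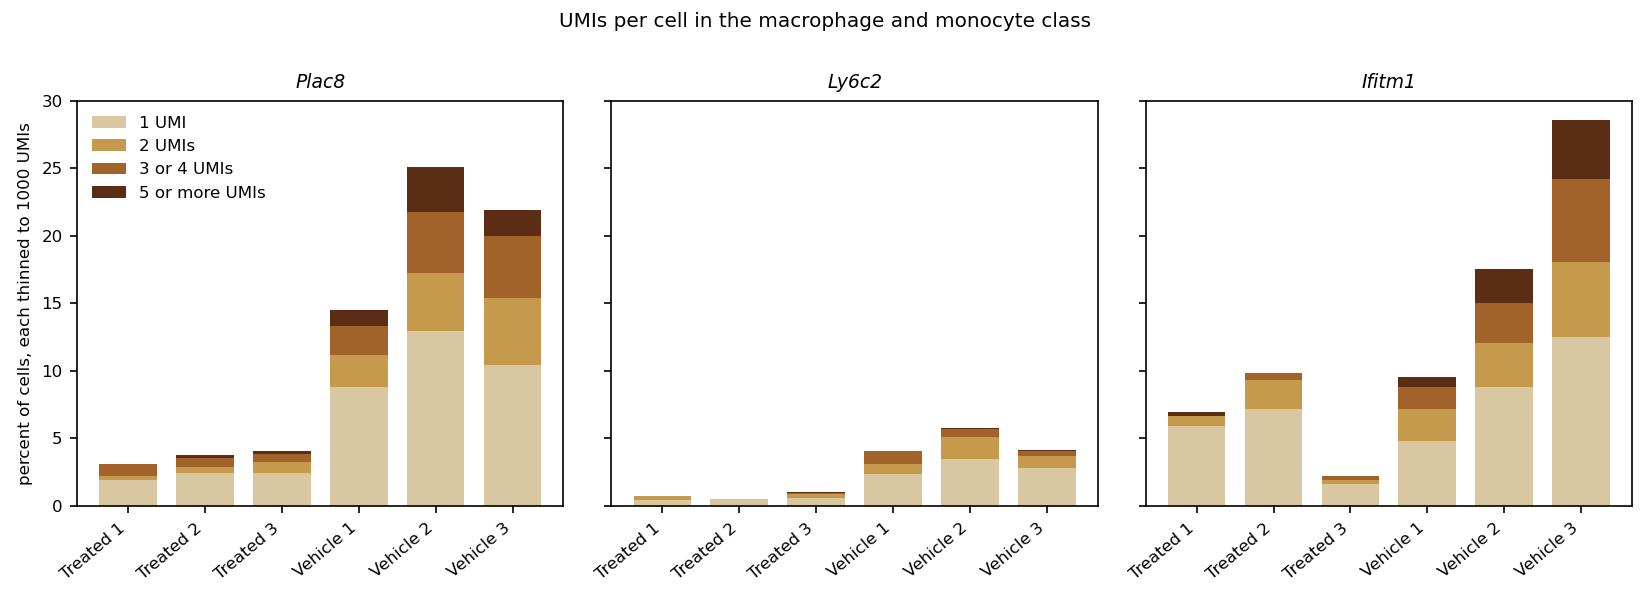
Percent of macrophages and monocytes with 1, 2, 3 or 4, and 5 or more UMIs of Plac8, Ly6c2 or Ifitm1 after thinning each cell to 1000 UMIs, as 1 stacked bar per mouse with Treated mice on the left. For Plac8 the bars reach 3.09% to 4.09% in Treated mice, against 14.5% to 25.1% in Vehicle mice, and cells with 1 UMI are the largest part of every Plac8 bar.

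The class joined C1q-rich tissue macrophages to a cluster of 738 cells with the highest level of Ccr2, the chemokine receptor of recruited monocytes, and the lowest of C1qa, at 882 and 134 CPM. This Ccr2-high cluster made up 2.49%, 1.93% and 2.28% of the class in Treated mice, against 6.11%, 6.07% and 16.5% in Vehicle mice. Few as they were, its cells held 57.2%, 40.4% and 65.4% of the class's Plac8 UMIs in Treated mice, against 64.9%, 29.5% and 66.5% in Vehicle mice. Plac8 within the cluster was 1096, 932 and 2403 CPM in Treated mice and 2670.3, 3046 and 1869 CPM in Vehicle mice. The groups overlapped there, Treated 3 being above Vehicle 3, and the cluster had only 20, 21 and 58 cells in Treated mice, against 29, 95 and 515 in Vehicle mice.

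The remaining cells were spread unevenly over clusters. Cluster 4 held 1360 cells of Treated 3 and clusters 5 and 23 held 320 and 191 of Treated 1 and 604 and 237 of Treated 2, while cluster 3 held 1004 of Vehicle 2 and no Treated mouse at 20 cells or more. Without the Ccr2-high cluster, a choice made after the data were seen, Plac8 was 17.6, 40.0 and 23.03 CPM in Treated mice and 129.9, 338 and 133 CPM in Vehicle mice, 7.44-fold lower by means over these unlike mixtures of clusters. Cells with a UMI made up 1.67%, 2.61% and 2.30% of these cells in Treated mice, against 10.2%, 21.6% and 11.6% in Vehicle mice, after thinning. Only clusters 0 and 1, besides the Ccr2-high cluster 2, had at least 20 cells in every mouse. Plac8 in cluster 0 was 26.7, 14.7 and 26.7 CPM in Treated mice and 110.5, 92.9 and 114 CPM in Vehicle mice. In cluster 1 it was 30.1, 100.2 and 27.7 CPM in Treated mice and 268, 155 and 133 CPM in Vehicle mice. Both clusters were C1q-rich, at 5511 and 3049 CPM of C1qa, and the groups did not overlap in either. Mice filled both clusters with different sub-clusters, so neither held matched cells. In cluster 0, sub-cluster 0.4 held 282 cells of Vehicle 1 and at most 3 of any Treated mouse, and 0.5 held 132 of Treated 3. In cluster 1, sub-cluster 1.1 held 525 cells of Treated 3, and 1.3 held 566 of Vehicle 3 and 10 of Treated 3. With that limit, the lower Plac8 level lay both in a smaller share of Ccr2-high cells and in the C1q-rich clusters outside them.

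**Figure D3:**
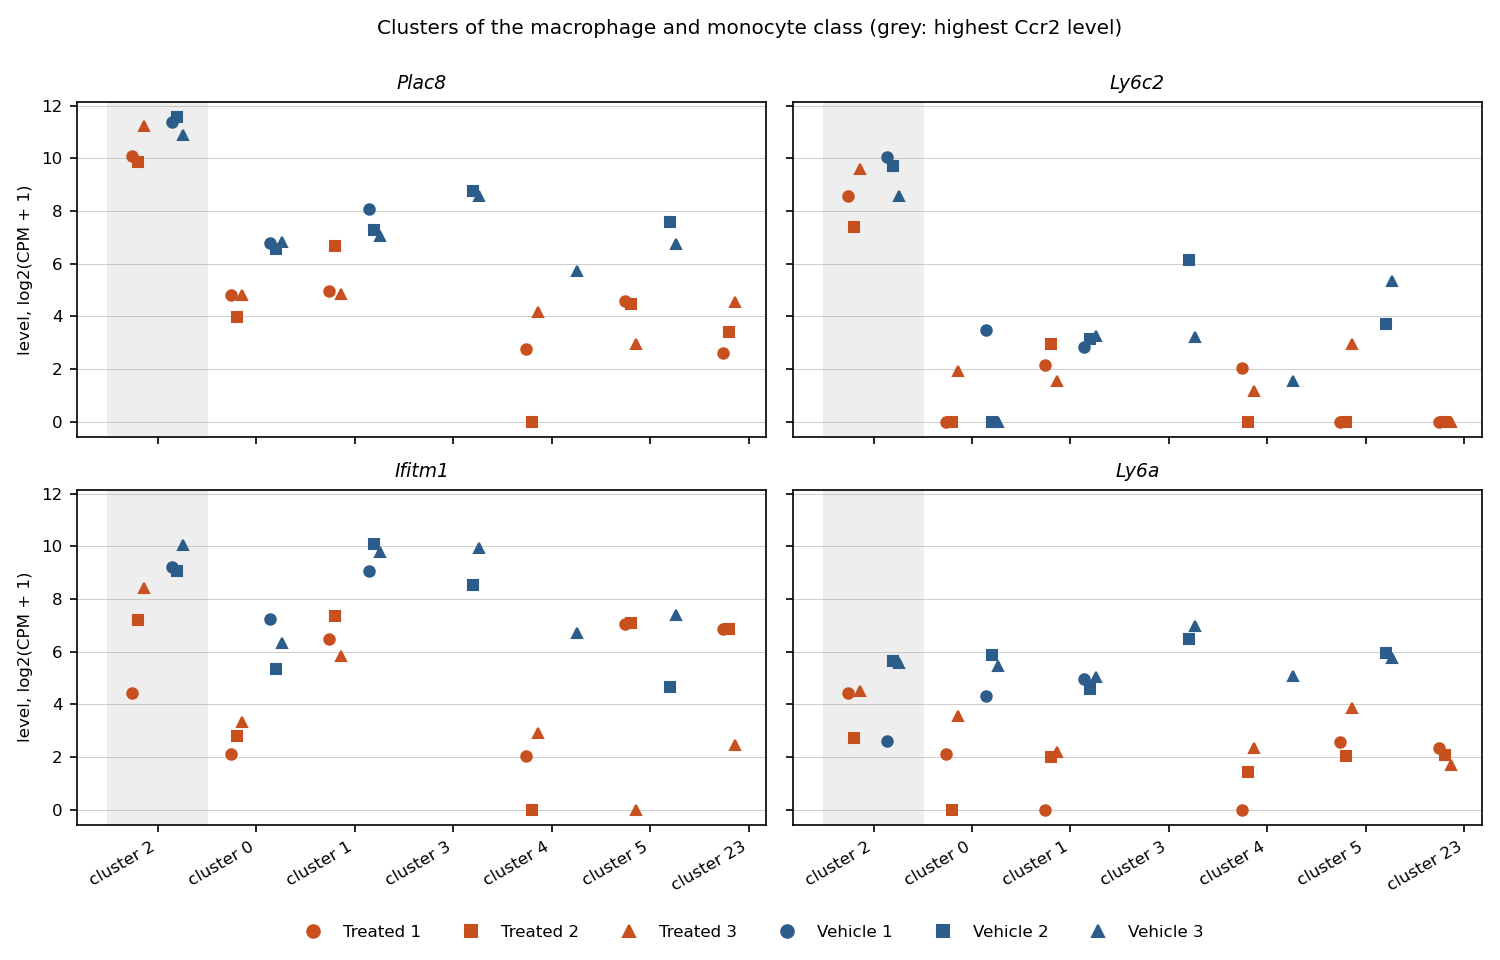
Level, as log2(CPM + 1), of Plac8, Ly6c2, Ifitm1 and Ly6a in each cluster of the macrophage and monocyte class, with 1 point for each mouse that had at least 20 cells of the cluster and Treated mice left of Vehicle mice. In cluster 2, on grey, Plac8 lies at 932 to 2403 CPM in Treated mice and 1869 to 3046 CPM in Vehicle mice, with overlap. In clusters 0 and 1 every Treated point of Plac8 lies below every Vehicle point, while the groups overlap for Ly6c2.

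A score from genes that are not members gave another split of the class, by monocyte marker UMIs minus C1q macrophage marker UMIs in a thinned cell. Cells at a score of 1 or more made up 15.6%, 10.8% and 66.6% of the class in Treated mice, against 11.7%, 21.8% and 41.1% in Vehicle mice. In Treated 3 this side was rich in Chil3, a marker in the score, whose class level was 13303 CPM there and 240.1 to 1342 CPM in the other mice, so it is not a count of monocytes. The mean share was 31.0% ± 30.9 in Treated mice, against 24.9% ± 14.97 in Vehicle mice (SD, n = 3 each; exact two-sided permutation test, p = 0.9, where the smallest possible is 0.1). Plac8 did not overlap between the groups on either side. It was 106, 333 and 83.4 CPM in Treated mice and 1669, 1422 and 676 CPM in Vehicle mice at a score of 1 or more, and 18.2, 23.7 and 26.2 CPM in Treated mice and 118, 236 and 153 CPM in Vehicle mice below it. Between 6.55% and 7.65% of the cells of Treated mice and 5.48% and 18.6% of those of Vehicle mice lay within 1 UMI of the dividing value.

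Ly6c2, the Ly6C gene of monocytes, was 10.4, 6.35 and 15.4 CPM in macrophages and monocytes of Treated mice, against 95.7, 84.4 and 54.4 CPM in Vehicle mice. The groups did not overlap, and the mean was 7.30-fold lower in Treated mice (edgeR log2 fold change -2.85, SE 0.39). It lay largely in the few Ccr2-high cells, which held 76.7%, 75.0% and 90.1% of its UMIs in Treated mice, against 90.8%, 44.5% and 86.5% in Vehicle mice. Within that cluster Ly6c2 was 379, 168 and 779 CPM in Treated mice and 1053, 844 and 382 CPM in Vehicle mice, and the groups overlapped. In all other cells of the class it was 2.48, 1.63 and 1.55 CPM in Treated mice and 9.61, 49.1 and 8.37 CPM in Vehicle mice, again without overlap but at low levels. In Vehicle 2 these other cells included 259 of sub-cluster 3.3, which had Ccr2 among its leading genes. Their part in its 49.1 CPM was not tested. Thinned cells with a Ly6c2 UMI made up 0.735%, 0.485% and 1.00% of the whole class in Treated mice, against 4.05%, 5.79% and 4.14% in Vehicle mice, and 2.61%, 1.74% and 3.07% in Treated mice, against 5.47%, 12.2% and 8.22% in Vehicle mice unthinned. In the C1q-rich cluster 1 Ly6c2 was 3.47, 6.73 and 1.90 CPM in Treated mice and 6.09, 7.73 and 8.63 CPM in Vehicle mice, with overlap. Cells with a Ly6c2 UMI were few in both groups.

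Ifitm1 was 75.5, 119 and 29.7 CPM in macrophages and monocytes of Treated mice, against 213, 437 and 844 CPM in Vehicle mice, 6.67-fold lower by means (edgeR log2 fold change -2.65, SE 0.62, and -2.06 without Vehicle 3). Thinned cells with a UMI made up 6.91%, 9.82% and 2.21% of the class in Treated mice, against 9.52%, 17.5% and 28.6% in Vehicle mice. These shares overlapped, as Treated 2 exceeded Vehicle 1, and unthinned they were 17.7%, 19.7% and 9.44% in Treated mice, against 20.4%, 31.3% and 42.1% in Vehicle mice. Cells with a UMI held 1.32, 1.32 and 1.44 in Treated mice, against 2.15, 2.49 and 2.74 in Vehicle mice, so the UMIs in each cell were separated too. Ifitm1 was lower without overlap inside the Ccr2-high cluster, where Plac8 and Ly6c2 overlapped, at 20.3, 146 and 340 CPM in Treated mice and 590.02, 534 and 1056 CPM in Vehicle mice. In cluster 1 it was 88.5, 164 and 55.5 CPM in Treated mice and 536, 1078 and 890 CPM in Vehicle mice, also without overlap.

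Neutrophils had the highest Ifitm1 mean of the 7 classes, and the summed level of 8 neutrophil genes in macrophages and monocytes was 93.0, 93.5 and 185 CPM in Treated mice and 2768, 199.9 and 378 CPM in Vehicle mice. In neutrophils themselves it was 62524, 35808 and 126631 CPM in Treated mice and 187303, 20512 and 104121 CPM in Vehicle mice. The part of neutrophil RNA in the Ifitm1 difference was not tested. Plasma cells held 0 Ifitm1 UMIs in Treated 3 and Vehicle 2, which allows 4.41% and 7.14% of thinned cells, and 4.17 CPM in Vehicle 1.

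Ly6a was low in this class, and Ly6c1 was near the floor. Ly6a was 2.42, 3.34 and 4.69 CPM in Treated mice and 18.0, 71.4 and 36.1 CPM in Vehicle mice, with no overlap. Beside its level in tumour cells this was 3.04%, 19.3% and 1.23% in Treated mice, against 2.59%, 10.9% and 4.84% in Vehicle mice. The ratio was below that of the 8 tumour genes in Vehicle 1 and above it in the other mice. Ly6c1 gave 18 UMIs over the Treated mice and 135 over the Vehicle mice, with 0 in Treated 1 and 2, which allows up to 0.428 and 0.476 CPM. Ly6d overlapped, at 0.856, 0.794 and 10.3 CPM in Treated mice and 11.7, 169.7 and 4.43 CPM in Vehicle mice. Vehicle 2, the highest, was also highest in Ly6d of tumour cells. The part of free tumour RNA in these 3 low levels was not tested.

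In tumour cells Ly6a, Ly6c1, Ly6c2 and Ifitm1 were lower without overlap, and Plac8 and Ly6d overlapped. Ly6a was 79.7, 17.3 and 382 CPM in Treated mice, against 697, 653 and 746 CPM in Vehicle mice. Vehicle tumours were close together and Treated tumours far apart, with Treated 3 nearest to the Vehicle values. Treated 1 and 2 lay mostly in a cluster that the other mice hardly filled, described below. The mean was 4.38-fold lower in Treated mice (edgeR log2 fold change -2.47, SE 1.01, and -4.23 without Treated 3). Thinned tumour cells with a Ly6a UMI made up 3.63%, 1.46% and 26.1% in Treated mice, against 39.4%, 35.5% and 46.8% in Vehicle mice, and unthinned 14.6%, 8.74% and 70.5% in Treated mice, against 74.1%, 61.3% and 89.8% in Vehicle mice. A cell with a UMI held 1.78, 1.53 and 1.38 in Treated mice, against 1.72, 2.02 and 1.62 in Vehicle mice. The shares did not overlap, and the UMIs in each such cell were too near their minimum of 1 to show how the difference was spread over cells.

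Tumour cells of different mice lay largely in different clusters, except that Treated 1 and 2 shared cluster 6. Cluster 6 held 1383 and 1936 cells of Treated 1 and 2, cluster 8 held 569 of Vehicle 1, cluster 7 held 1437 of Vehicle 2 and cluster 21 held 2474 of Vehicle 3. Each sub-cluster of cluster 6 held cells of both Treated 1 and Treated 2, such as 383 and 594 in sub-cluster 6.1. The labels give them as separate samples, and what makes them alike was not tested. Leading genes of cluster 6 included Cdkn2a, Nnat and Meg3. The mean log2 ratio of the tumour markers to their median over all sub-clusters was -0.09 to 1.71 there. It was 0.78 to 2.57 over the sub-clusters of cluster 8, 1.81 to 4.33 in cluster 7 and 1.93 to 3.84 in cluster 21. Tumour-cell differences between the groups thus compare unlike clusters. The spread over sub-clusters of at least 20 cells is therefore given mouse by mouse. Ly6a ran from 0 to 1125 CPM over 12 sub-clusters of Treated 1 with a median of 4.78 CPM, from 2.25 to 205 CPM over 8 of Treated 2 with a median of 4.24 CPM, and from 48.9 to 704 CPM over 5 of Treated 3 with a median of 163 CPM. In Vehicle mice the medians were 631, 625 and 627 CPM over 6, 15 and 10 sub-clusters, and the lowest sub-clusters had 420, 14.6 and 73.6 CPM. The median of every Treated tumour lay below that of every Vehicle tumour, yet single sub-clusters of Treated 1 and 3 reached Vehicle levels. For Ifitm1, near the floor in Treated mice, the highest sub-cluster had 6.46, 2.95 and 7.87 CPM in Treated mice. The medians of Vehicle mice were 55.6, 7.81 and 42.5 CPM, and their lowest sub-clusters had 13.5, 2.35 and 2.30 CPM, so the lowest of Vehicle 2 and 3 lay in the range of Treated sub-clusters.

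Cluster 15 had at least 20 cells in every mouse but Vehicle 1, with 183, 93 and 467 cells in Treated mice and 1003 and 128 in Vehicle 2 and 3. Ly6a there was 594, 294 and 533 CPM in Treated mice and 1568 and 721 CPM in Vehicle 2 and 3. Ly6c1 was 13.7, 6.33 and 17.2 CPM in Treated mice and 102 and 95.5 CPM in Vehicle 2 and 3, and Ly6d was 1421, 1429 and 2681 CPM in Treated mice and 11505 and 3200.1 CPM in Vehicle 2 and 3. None of these genes overlapped in cluster 15, nor did Plac8, at 589.8, 620.2 and 472 CPM in Treated mice and 1039 and 630.4 CPM in Vehicle 2 and 3. Shared clusters did not all give that direction for Plac8, which was 1604 CPM in Treated 3 and 1249.6 CPM in Vehicle 2 in cluster 7. Neither cluster held matched cells. In cluster 7, sub-cluster 7.0 held 138 cells of Treated 3 and 0 of Vehicle 2. In cluster 15, sub-clusters 15.1 and 15.2 held 264 and 192 cells of Treated 3 and 1 and 3 of Vehicle 2. Sub-clusters 15.5 and 15.6 held 257 and 288 cells of Vehicle 2 and 1 and 0 of Treated 3.

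**Figure D4:**
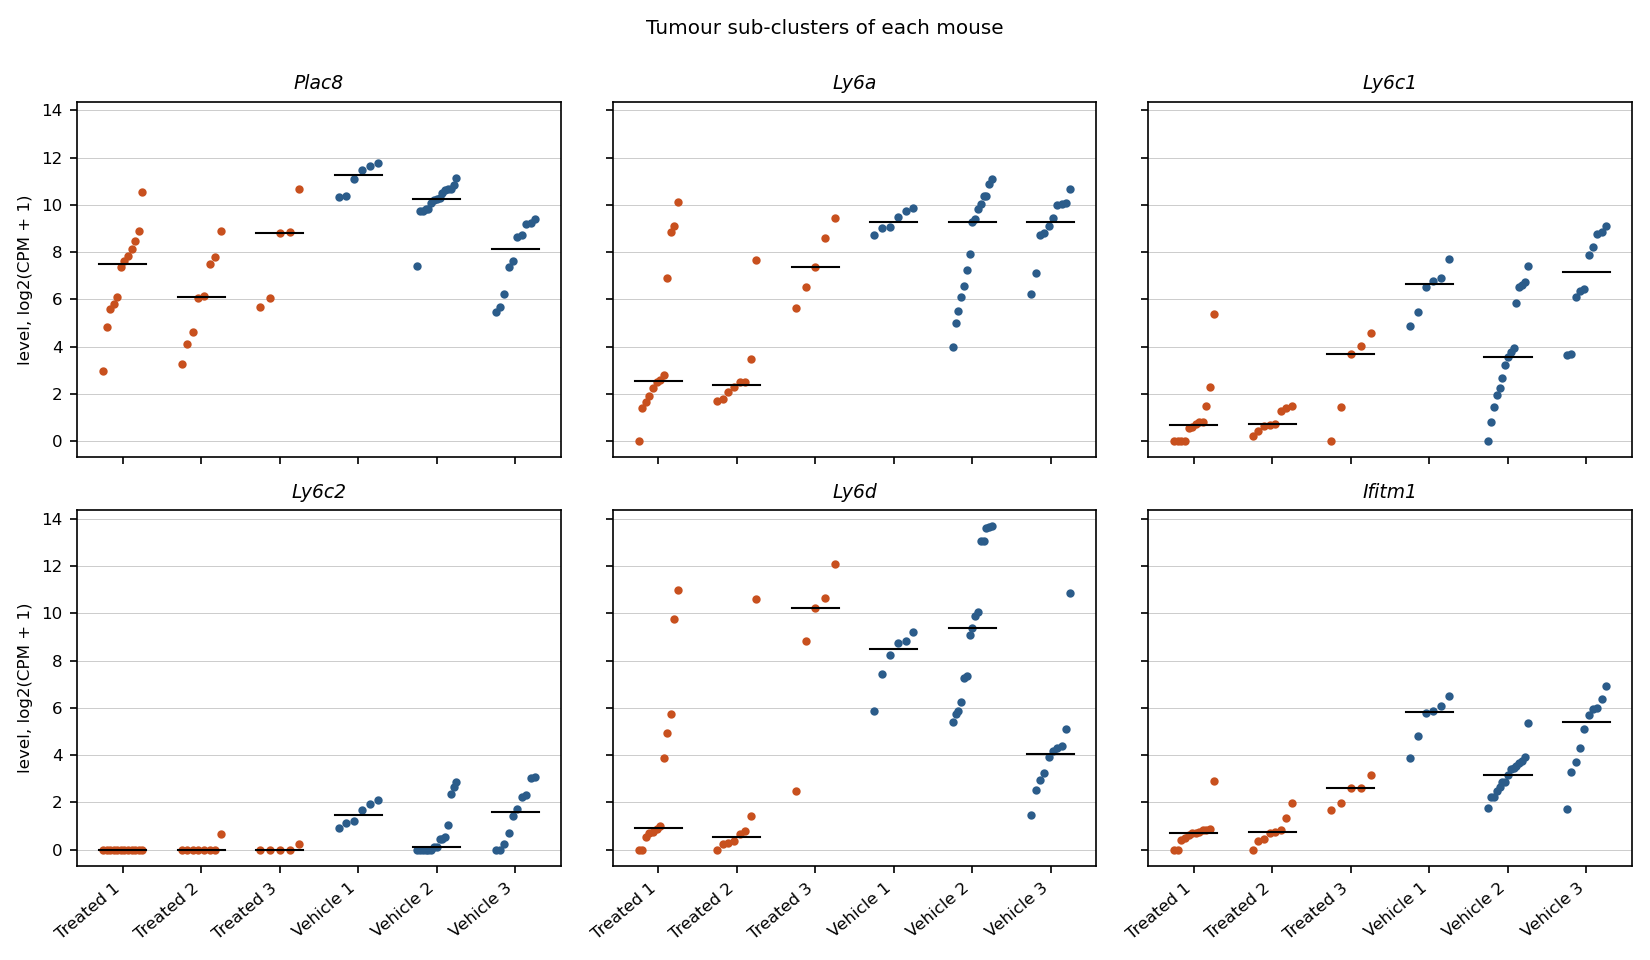
Level of each gene, as log2(CPM + 1), in the tumour sub-clusters of each mouse, with 1 point for each sub-cluster of at least 20 cells, Treated mice left of Vehicle mice, and a black line at the median. The Ly6a medians are 4.78, 4.24 and 163 CPM in Treated mice and 631, 625 and 627 CPM in Vehicle mice, with a wide spread inside most mice.

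Ly6c1 in tumour cells was 2.13, 1.08 and 12.1 CPM in Treated mice, against 88.9, 34.5 and 276 CPM in Vehicle mice. The groups did not overlap, and the mean was 26.05-fold lower in Treated mice (edgeR log2 fold change -5.17, SE 1.32, -3.83 without Vehicle 3 and -6.87 without Treated 3). Thinned cells with a UMI made up 0.188%, 0.146% and 0.273% in Treated mice, against 5.95%, 3.64% and 21.2% in Vehicle mice, and unthinned 2.42%, 1.99% and 20.3% in Treated mice, against 27.8%, 20.8% and 71.5% in Vehicle mice. Endothelial cells had the highest Ly6c1 CPM of the 7 classes, although tumour cells gave more of its UMIs in Vehicle mice, 26642 against 2140. The summed level of 12 endothelial markers in tumour cells was 71.4, 78.1 and 49.8 CPM in Treated mice and 21.3, 38.7 and 81.1 CPM in Vehicle mice. The part of endothelial RNA in the Ly6c1 difference was not tested. Ly6c2 was at most 3.73 CPM in every tumour, with 7 UMIs over the Treated mice and 356 over the Vehicle mice, and with its copy Ly6c1 beside it those reads cannot be assigned with certainty.

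Ifitm1 in tumour cells was 0.840, 1.05 and 4.30 CPM in Treated mice, against 50.1, 7.02 and 57.8 CPM in Vehicle mice, 18.6-fold lower by means (edgeR log2 fold change -4.63, SE 1.09, -5.78 without Treated 3 and -3.77 with doublets kept). The neutrophil genes there summed to 22.7, 26.3 and 35.0 CPM in Treated mice and 274, 21.3 and 85.1 CPM in Vehicle mice. Their part in the Ifitm1 difference was not tested. Plac8 was 189.6, 154 and 805 CPM in Treated mice and 2579, 1209 and 427 CPM in Vehicle mice, and Treated 3 exceeded Vehicle 3. Its edgeR log2 fold change was -2.14 (SE 0.85), -3.33 without Treated 3 and -1.40 without Vehicle 1. Thinned shares of cells with a Plac8 UMI were 9.76%, 9.28% and 34.4% in Treated mice, against 74.3%, 60.7% and 32.3% in Vehicle mice, and unthinned 46.2%, 41.2% and 83.3% in Treated mice, against 92.1%, 91.4% and 83.4% in Vehicle mice.

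Ly6d overlapped between the groups, at 177, 64.3 and 1818 CPM in Treated mice and 357, 3643 and 100.2 CPM in Vehicle mice. Its level was higher in gastric-like cells, those with at least 2 thinned UMIs of gastric mucus and peptide genes such as Tff1 and Muc6. These had 776, 918 and 3647 CPM in Treated mice and 7290.1 and 2970.02 CPM in Vehicle 2 and 3, against 139, 37.6 and 510 CPM in the other tumour cells of Treated mice and 346, 2681 and 44.8 CPM in those of Vehicle mice. Vehicle 1 had only 12 gastric-like cells and is given for the other side alone, and in each other mouse the gastric-like side was higher. Gastric-like cells made up 5.38%, 2.64% and 48.8% in Treated mice, against 2.23%, 24.8% and 2.74% in Vehicle mice. Ly6a was also higher on that side in each of these mice, at 232, 121 and 389 CPM in Treated mice and 1146 and 862 CPM in Vehicle 2 and 3, against 70.0, 14.04 and 376 CPM in other cells of Treated mice and 689, 523 and 744 CPM in those of Vehicle mice. The groups did not overlap in Ly6a on either side, and they overlapped in Ly6d on both.

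Endothelial cells overlapped between the groups in Ly6c1 and Ly6a and were separated in Plac8. Ly6c1 was 432, 362 and 693 CPM in Treated mice and 929, 529.7 and 299 CPM in Vehicle mice, and Ly6a was 459, 339 and 460 CPM in Treated mice and 380.5, 702 and 354 CPM in Vehicle mice. Both overlapped, with edgeR log2 fold changes of -0.32 (SE 0.41) for Ly6c1, which turned to 0.19 without Vehicle 1, and -0.30 (SE 0.27) for Ly6a, which was 0.02 without Vehicle 2. Both were genes of blood vessels. In lymphatic cells, those with at least 2 thinned UMIs of lymphatic markers, Ly6c1 was 0 CPM in the 24 and 47 such cells of Treated 1 and 2 and 0 and 6.79 CPM in the 58 and 21 of Vehicle 2 and 3, against 321 to 963 CPM in all other endothelial cells.

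Plac8 in endothelial cells was 20.7, 15.6 and 14.2 CPM in Treated mice and 137, 56.9 and 39.3 CPM in Vehicle mice, 4.61-fold lower by means (edgeR log2 fold change -1.95, SE 0.41). Thinned cells with a UMI made up 0.962%, 1.01% and 1.31% in Treated mice, against 8.33%, 5.38% and 4.42% in Vehicle mice, and unthinned 4.42%, 6.10% and 8.82% in Treated mice, against 23.4%, 22.8% and 11.9% in Vehicle mice. The thinned share was no higher than that of plasma cells in Treated 3, at 1.31% against 1.47%, and in Vehicle 2, at 5.38% against 7.14%. In Vehicle 1 it was 8.33% of only 36 cells, against 0 of 39 plasma cells, which allows up to 7.69%. These plasma cell shares rest on few cells. In CPM, endothelial cells were above plasma cells in each of these mice. The values were 14.2 against 11.6 in Treated 3, 137 against 47.9 in Vehicle 1 and 56.9 against 8.85 in Vehicle 2. The 8 tumour genes in endothelial cells stood at 1.49%, 3.76% and 0.584% of their tumour-cell level in Treated mice, against 2.78%, 3.33% and 3.79% in Vehicle mice, and Plac8 at 10.9%, 10.1% and 1.77% in Treated mice, against 5.32%, 4.70% and 9.21% in Vehicle mice. Of 7 of these tumour genes that could be tested, 3 fell in endothelial cells of Treated mice. They were Tff1, Krt8 and Krt19, with edgeR log2 fold changes of -3.87, -2.79 and -2.78 and adjusted p of 0.0285, 0.0365 and 0.0297, and they passed in 8, 7 and 6 of 12 alternatives. The part of free tumour RNA in the endothelial Plac8 difference was not tested.

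Fibroblasts were a class with much Plac8 and no separation of the groups. Plac8 there was 335, 428 and 463 CPM in Treated mice and 558, 413 and 395 CPM in Vehicle mice (edgeR log2 fold change -0.33, SE 0.26). Thinned cells with a UMI made up 21.6%, 30.9% and 32.8% in Treated mice, against 42.0%, 30.7% and 31.9% in Vehicle mice, and 77.3%, 72.7% and 86.4% in Treated mice, against 70.3%, 85.2% and 83.2% in Vehicle mice unthinned. Ly6a was 345, 337 and 142 CPM in Treated mice and 129, 325 and 333 CPM in Vehicle mice, and Ly6c1 58.3, 69.4 and 53.2 CPM in Treated mice and 31.0, 18.6 and 83.2 CPM in Vehicle mice. In fibroblasts, then, the groups overlapped in all 3 of these genes.

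Within fibroblasts Ly6a and Ly6c1 marked the adventitial or inflammatory side, cells with no excess of myofibroblastic over adventitial marker UMIs. Ly6a was 583, 720.1 and 445 CPM on that side in Treated mice and 299, 609.7 and 1068 CPM in Vehicle mice, against 112, 106 and 47.6 CPM on the myofibroblastic side in Treated mice and 99.7, 259 and 152 CPM in Vehicle mice. Ly6c1 was 108, 159 and 183 CPM on the adventitial side in Treated mice and 80.9, 56.8 and 317 CPM in Vehicle mice, against 9.96, 15.2 and 13.2 CPM on the myofibroblastic side in Treated mice and 20.6, 9.64 and 25.8 CPM in Vehicle mice. Each mouse thus had both genes higher on the adventitial side, and Plac8, at 331 to 590 CPM on one side and 330 to 558 CPM on the other, overlapped between the sides. The myofibroblastic side made up 42.2%, 51.5% and 63.1% of fibroblasts in Treated mice, against 80.0%, 77.0% and 68.6% in Vehicle mice. The means, 52.3% ± 10.5 in Treated mice, against 75.2% ± 5.94 in Vehicle mice (SD, n = 3 each), differed by -22.9 percentage points (exact two-sided permutation p = 0.1, the smallest possible, and 0.6 adjusted over 6 state comparisons). With the dividing value 1 step lower they differed by -14.7 points (exact permutation p = 0.2), and 1 step higher by -24.0 points (p = 0.1). Between 31.3% and 42.1% of fibroblasts of Treated mice and 22.0% and 33.0% of those of Vehicle mice lay within 1 UMI of it. The gastric-like share of tumour cells, the blood-like share of neutrophils, the lymphatic share of endothelial cells and the CD8 T and NK share had exact permutation p of 0.6, 0.2, 0.7 and 0.6, or 0.84, 0.6, 0.84 and 0.84 adjusted.

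In neutrophils 1 library decided the mean of Plac8, which was 213, 188 and 219 CPM in Treated mice and 2134, 370.1 and 189 CPM in Vehicle mice. The groups overlapped, and the edgeR log2 fold change was -2.63 (SE 1.01), and -0.39 without Vehicle 1. Nearly all Vehicle 1 neutrophils, 481 cells, were in a cluster that no other mouse but Treated 3, with 63 cells, had at 20 cells or more. Plac8 in that cluster was 501 CPM in Treated 3 and 2153 CPM in Vehicle 1, and Ly6c2 was 894 CPM in Treated 3 and 953 CPM in Vehicle 1. Its sub-clusters were unlike each other. One with 27 cells of Vehicle 1 was led by Elane, Prtn3 and Ctsg. Camp and Ngp were among the leading genes of 97 further cells of Vehicle 1 and of 60 cells of Treated 3. Over 4 neutrophil sub-clusters of Vehicle 1, Plac8 ran from 389 to 4861 CPM with a median of 529 CPM. In a cluster that the other 5 mice shared, Plac8 was 214, 197 and 156 CPM in Treated mice and 378 and 255 CPM in Vehicle 2 and 3. Most neutrophils of Vehicle 3, 1896 cells, were in a further cluster that Vehicle 2 had with 29 cells and no Treated mouse at 20 cells or more, and Plac8 there was 153 CPM in Vehicle 2 and 168 CPM in Vehicle 3. The neutrophil clusters were thus filled by different mice. Thinning left out 13, 11 and 15 neutrophils of Treated mice and 105, 651 and 1586 of Vehicle mice. Over the cells that remained, thinned shares of cells with a Plac8 UMI were 12.7%, 14.2% and 11.8% in Treated mice, against 34.1%, 24.58% and 13.4% in Vehicle mice, and unthinned 22.0%, 21.4% and 23.3% in Treated mice, against 49.3%, 23.1% and 14.1% in Vehicle mice.

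Ifitm1, the neutrophil-led member, was 1944, 1612 and 3860.3 CPM in neutrophils of Treated mice and 1301, 2109.7 and 8373 CPM in Vehicle mice, with overlap. Its edgeR log2 fold change was -0.88 (SE 0.84), and 0.40 without Vehicle 3. Ly6c2 was 29.8, 4.42 and 258 CPM in Treated mice and 944, 12.3 and 94.9 CPM in Vehicle mice, and the highest mouse of each group was the one with at least 20 cells in the cluster described for Vehicle 1. Ly6a was 18.4, 15.5 and 22.8 CPM in Treated mice and 13.6, 172 and 90.7 CPM in Vehicle mice.

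In T and NK cells Ly6a was 151, 151 and 107 CPM in Treated mice and 317, 349 and 171 CPM in Vehicle mice, without overlap and 2.05-fold lower by means (edgeR log2 fold change -1.01, SE 0.33). Thinned cells with a UMI made up 12.0%, 10.6% and 8.91% in Treated mice, against 16.0%, 24.9% and 11.4% in Vehicle mice, which overlapped, as did the unthinned 25.3%, 23.7% and 20.9% in Treated mice, against 20.9%, 33.9% and 17.2% in Vehicle mice. Vehicle 1 had only 25 T and NK cells deep enough to thin. Tumour genes there summed to 10.5%, 4.56% and 2.92% of their tumour-cell level in Treated mice, against 5.70%, 9.80% and 5.37% in Vehicle mice, and 1 of 7 tested, Krt7, fell (edgeR log2 fold change -4.06, adjusted p = 0.0444, passing in 8 of 12 alternatives with adjusted p up to 0.391). The level of Ly6a itself was 189%, 869.5% and 28.0% of that in tumour cells in Treated mice, against 45.5%, 53.5% and 22.97% in Vehicle mice, above the tumour genes in every mouse. Ly6c1, with 8 UMIs over Treated mice and 21 over Vehicle mice, was the other member without overlap, and the part of free RNA in it was not tested.

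B cells, with 25, 20 and 389 cells in Treated mice, against 46, 805 and 181 in Vehicle mice, held Plac8 and Ly6d at overlapping levels in both groups. Plac8 was 911, 483 and 402 CPM in Treated mice and 469, 532 and 515 CPM in Vehicle mice, and Ly6d was 1856, 1863 and 765 CPM in Treated mice and 1207, 1850.3 and 1198 CPM in Vehicle mice. Both overlapped, with edgeR log2 fold changes of 0.17 (SE 0.36) for Plac8, which was -0.22 without Treated 1, and 0.02 (SE 0.35) for Ly6d. Ifitm1 had 0 UMIs in B cells of all Treated mice, which allows up to 33.7, 40.2 and 2.10 CPM, and 2, 14 and 27 UMIs in Vehicle mice. The limits of Treated 1 and 2 lie above the 22.4 and 8.33 CPM of Vehicle 1 and 2, so a difference from those mice was not detectable at this depth.

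Relatives of the members were counted over all genes of a class. In macrophages and monocytes, 5 of 29 other LY6/uPAR genes and 5 of 6 other IFITM genes could be tested, and 0 passed, with median log2 fold changes of -0.98 and -0.90 beside 0.01 over all genes tested. The 2 most abundant of each are named. Ly6e, an interferon-induced Ly6 gene, averaged 290.0 ± 42.6 CPM in Treated mice and 588 ± 129 CPM in Vehicle mice (edgeR log2 fold change -0.98, SE 0.22, adjusted p = 0.178), and Plaur, the urokinase receptor, 127 ± 16.8 CPM in Treated mice and 103 ± 12.6 CPM in Vehicle mice (0.31, SE 0.25, adjusted p = 0.712). Ifitm3 averaged 855 ± 313 CPM in Treated mice and 1945 ± 249 CPM in Vehicle mice (-1.18, SE 0.37, adjusted p = 0.321), and Ifitm2 621 ± 23.9 CPM in Treated mice and 1188 ± 134 CPM in Vehicle mice (-0.90, SE 0.21, adjusted p = 0.191). Ly6e, Ifitm2 and Ifitm3 were lower without overlap, as were 11.1% of all genes tested in this class.

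The wider interferon response list did not share that median. Of 36 genes, 33 were tested in macrophages and monocytes and 0 passed, with 17 below and 16 above 0 and a median log2 fold change of -0.01. In tumour cells 32 were tested and 0 passed, with a median of 0.46 beside -0.06 over all genes, where 21 LY6/uPAR genes had a median of -0.76 and 0 passed. In endothelial cells 1 of 4 tested LY6/uPAR genes fell. It was Plaur, at 30.1 ± 2.05 CPM in Treated mice and 59.5 ± 7.89 CPM in Vehicle mice (edgeR log2 fold change -1.02, SE 0.21, adjusted p = 0.0499), which passed in 3 of 12 alternatives, with adjusted p from 0.00768 to 0.193. Of 12 monocyte genes tested in macrophages and monocytes 0 passed, with a median of -0.68. The PLAC8 relatives Plac8l1 and Cnfn could not be tested in any class.

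Likeness across 58 sums of 1 mouse and 1 class is a description, since sums of a mouse share its library. The genes whose log2(CPM + 10) followed Ly6c1 best were Jam2, Sema6a and Ramp2, with Pearson r of 0.90, 0.88 and 0.87. Ifitm1 was followed by Gpr141, Rasgrp4 and Myd88 (0.80, 0.78 and 0.78), and Ly6d by Ralgps2, Fcmr and Blnk (0.78, 0.67 and 0.66). Plac8 and Ly6c2 had looser company, led by Bri3bp at 0.67 and Sec11c at 0.66, and Ly6a was led by Itpr3, Ly6e and Traf4 at 0.65, 0.64 and 0.64. Among the members the highest value was 0.58, between Ly6a and Ly6c1, and the near-copies Ly6c1 and Ly6c2 had -0.39.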

How the data were processed

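Droplet single-cell RNA libraries of 6 mice, 3 Treated and 3 Vehicle, were grouped by their titles, and mice are the replicates. The deposited values are raw counts of UMIs per gene and barcode, made with Cell Ranger 5.0.1 on mm10 per the submitters' processing notes. The members and lists were chosen with earlier results of these data known. Genes named beside the members were the 3 most alike by Pearson r, and from each list up to 4 that passed or the 2 most abundant.

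Barcodes with at least 500 UMIs, 250 genes and at most 20% mitochondrial UMIs were kept. The cells with the highest doublet scores of each library were left out, at an assumed 0.8% per 1000 barcodes. These were 2926 cells, with 946 and 1115 in Vehicle 2 and 3, which left 37002 cells of 44819 barcodes. The scoring tool's own cut called 0% to 0.973% of the cells of a library. Cell classes were rebuilt here from marker genes. Cells were clustered without the members (scanpy 1.11.5, 2000 variable genes, 30 components, 15 neighbours, resolution 1), and clusters of at least 100 cells were clustered again (1000 genes, 15 components, resolution 0.5). Of 173 sub-clusters, 20 stayed unnamed, with 7.76% of cells. A name needed at least 3 markers at 50 CPM and 4-fold, and doubtful sub-clusters were reviewed by hand from their leading genes.

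UMIs were summed per mouse and class with at least 20 cells and fitted with edgeR 4.0.16 (TMM, filterByExpr, robust quasi-likelihood test, two-sided, Benjamini-Hochberg over all genes of a class), in R 4.3.3. The fit was tested on simulated data. A limit for a count of 0 is 3 counts of the total, and such limits cover counting error only. State shares were compared with exact two-sided permutation tests. Replicate numbers were not taken to pair mice, since no class had all 3 correlations of same-numbered deviations above 0.1. In neutrophils they were 0.0567, 0.2393 and 0.1123, and such a check cannot exclude pairing. Alternatives were RLE factors, no filter, DESeq2 1.42.0, a replicate block, doublets kept, at most 10% mitochondrial UMIs, leaving out each mouse, thinning to 2000 UMIs or none and other dividing values. Keeping tumour sub-clusters led by intestinal genes, and leaving out the Ccr2-high cluster, were added after seeing the data.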

Additional observations from a re-analysis of the deposited data

How the results depend on the processing

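Leaving out a mouse can only keep or raise the count of members lower without overlap, so its range says nothing about stability. The range was 5 to 6 in macrophages and monocytes, 4 to 5 in tumour cells, 2 to 3 in T and NK cells, 1 in endothelial cells, 1 to 2 in fibroblasts, 0 to 2 in neutrophils and 1 to 3 in B cells. With doublets kept the count was 0 in fibroblasts and 0 in B cells. Counts of genes called by edgeR depended more on the setting. DESeq2 called 435 in tumour cells, 362 in fibroblasts, 190 in endothelial cells, 288 in macrophages and monocytes, 2 in neutrophils, 5 in T and NK cells and 2 in B cells. With no filter on low counts edgeR called 696 in endothelial cells, 76 in macrophages and monocytes, 9 in neutrophils, 69 in T and NK cells and 34 in B cells. Endothelial calls were 46 with doublets kept. At most 10% mitochondrial UMIs gave 4 in macrophages and monocytes and 6 in T and NK cells, and RLE factors gave 1 in T and NK cells. Leaving out each mouse gave 0 to 61 calls in fibroblasts (61 without Vehicle 1), 0 to 654 in endothelial cells (0 without Treated 1, 654 without Vehicle 1), 0 to 3 in neutrophils, 0 to 23 in T and NK cells (23 without Vehicle 1), 0 to 11 in B cells, and 0 in every fit of macrophages and monocytes and of tumour cells. The causes were not tested.

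With the replicate number as a block, edgeR called 12 genes in macrophages and monocytes and 6 in T and NK cells, and the log2 fold change of Plac8 in macrophages and monocytes was -2.73, of Ly6a in tumour cells -3.44 and of Plac8 in neutrophils -1.46. The numbers were not taken to pair the mice.

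The difference in state share changed sign in some fits without 1 mouse. It ran from -11.7 (without Treated 3) to 16.3 percentage points in macrophages and monocytes, with -0.441 without Vehicle 1. It ran from -5.90 to 17.2 in tumour cells, -2.30 to 8.42 in endothelial cells, with -1.97 without Vehicle 1, and -0.32 to 5.23 in T and NK cells. Without Treated 3 the log2 fold changes in macrophages and monocytes were 0.17 for Psmb8, which ran from -0.35 to 0.17 over the fits without 1 mouse, and -0.14 for Fn1, which ran from -0.14 to 0.95. A dividing value 1 step lower gave no comparison in T and NK cells, since 100% of cells were at or over it. Few cells limited Treated B cells and plasmacytoid dendritic cells.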
